A study of Mus musculus with 4 samples.

Results

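Foxp3+ cells were a small population within the UTCαβ of mouse sarcomas, and their other transcripts included markers of regulatory T cells. UTCαβ are unconventional αβ T cells without CD4 and CD8 on their surface. They were sorted from tumors raised by the carcinogen 3-methylcholanthrene in male C57BL/6J mice. Cells were chosen by their own counts: a cell belonged here if at least 1 unique molecular identifier (UMI, a count of 1 captured transcript) of Cd3e, a chain of the T cell receptor complex, and at least 1 UMI of Foxp3 were found in it. This gave 263 cells of 21342 Cd3e+ cells in barcodes that held at least 200 genes, no more than 20000 UMIs and no more than 10% of UMIs from mitochondrial genes. The levels of Foxp3 and Cd3e in these cells are therefore a description and were not tested. There were 4 libraries, 2 biological replicates from Csf3r+/+ mice and 2 from Csf3r-/- mice, the latter lacking the receptor for granulocyte colony-stimulating factor in all tissues and being short of neutrophils. All 4 libraries thus share the carcinogen, the strain background and the sort. The deleted gene, Csf3r, had 0 UMIs in the Foxp3+ cells of every library and 1, 3, 2 and 1 UMIs in the other Cd3e+ cells of Csf3r+/+ libraries 1 and 2 and Csf3r-/- libraries 1 and 2, so these cells cannot serve as a check of the genotype labels. The age of the mice at sampling is not given in the sources used here.

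Foxp3 encodes the transcription factor that specifies and maintains regulatory T cells. Most regulatory T cells carry CD4, and they restrain other T cells through CTLA-4, through capture of interleukin-2 by a high-affinity receptor and through secreted cytokines. In tumors they are known for high levels of costimulatory receptors of the tumor necrosis factor receptor family, and a set of them in non-lymphoid tissue carries KLRG1 and secretes the repair factor amphiregulin. Since the sort took cells without surface CD4 and CD8 after depletion of cells that carry them, shares given here are shares of the sorted cells and not of the T cells of the tumor.

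Foxp3 transcripts were found in 7 of 2843 Cd3e+ cells (0.246%, exact Clopper-Pearson 95% interval 0.0990% to 0.507%) of Csf3r+/+ library 1. They were found in 127 of 6458 cells (1.97%, 1.64% to 2.34%) of Csf3r+/+ library 2. In Csf3r-/- libraries 1 and 2 the numbers were 22 of 5215 (0.422%, 0.265% to 0.638%) and 107 of 6826 (1.57%, 1.29% to 1.89%). Both genotypes thus had a library with few Foxp3+ cells and another with more, and the genotypes overlapped. Csf3r+/+ sarcomas had a mean share of 1.11% ± 1.22 (SD, n = 2). That of Csf3r-/- sarcomas was 0.995% ± 0.810 (SD, n = 2), a difference of -0.112 points and less than either SD (two-sided exact permutation test, p = 1). With 2 libraries against 2 the smallest p this test can give is 0.333. Cells were also thinned to 1500 UMIs to even out depth, and those with fewer UMIs were left out. This kept 2780, 6319, 4674 and 5851 Cd3e+ cells in the same order. The shares were then 0.180%, 1.06%, 0.193% and 1.01%, and the exact permutation test again gave p = 1. Intervals cover counting error only.

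**Figure D1:**
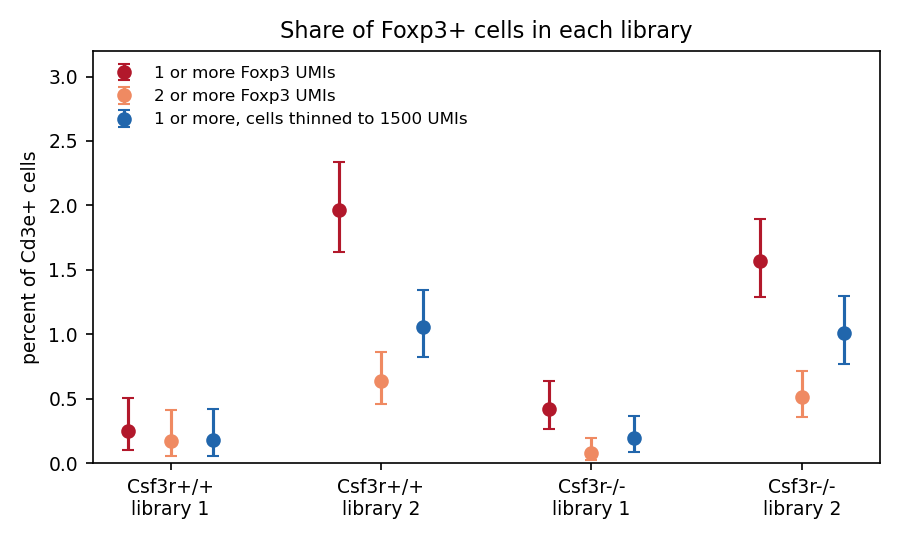
Share of Foxp3+ cells among the Cd3e+ cells (vertical axis, percent) in each of the 4 libraries (horizontal axis). Points are shares with 1 or more Foxp3 UMIs, 2 or more, or 1 or more after thinning to 1500 UMIs per cell, and bars are exact 95% Clopper-Pearson intervals. The libraries with 127 and 107 Foxp3+ cells lie above those with 7 and 22 in every series, 1 of each genotype.

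The Foxp3+ cells of the 4 libraries held 42059, 538186, 88456 and 332880 UMIs in all, in the order Csf3r+/+ libraries 1 and 2 and Csf3r-/- libraries 1 and 2. A Foxp3+ cell had a median of 2432, 3943, 3138 and 2603 UMIs, compared with 3055, 3021, 2237 and 1978 in the other Cd3e+ cells. Csf3r+/+ library 1 stood apart, since a single cell of 17419 UMIs gave 41.4% of its 7 cells' UMIs. No doublet caller was run, and the upper limit on UMIs was the only step against doublets. Between 33 and 163 barcode sequences were shared by any pair of libraries, and 0 Foxp3+ cells were among them.

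Of the 263 cells, 178 held 1 Foxp3 UMI and 85 held 2 to 5. Foxp3, on chromosome X (7573644 to 7595245, GRCm38, plus strand), reached 380.4, 349, 317 and 469 counts per 1000000 UMIs (CPM) in these cells, a level that the choice of cells set. A single UMI can come from free RNA in a droplet, so the same share was taken in barcodes that should lack the gene. Among barcodes without Cd3e but with complement C1q transcripts, the mark of macrophages, 2 of 131 held a Foxp3 UMI (1.53%, median 5727 UMIs), and among B cell barcodes 1 of 198 did (0.505%, median 1606 UMIs). These 3 barcodes held a single Foxp3 UMI each. All 3 came from Csf3r+/+ library 2 and Csf3r-/- library 2, where 1 of 38 and 1 of 78 macrophage barcodes (2.63% and 1.28%) held Foxp3, beside the 1.97% and 1.57% of Cd3e+ cells. With 1 barcode each, and with macrophage barcodes deeper (median 4776 and 5909 UMIs) than Cd3e+ cells, these shares cannot show whether the Foxp3 UMI alone separates the cells from background. In Csf3r+/+ library 1 and Csf3r-/- library 1 the background was not detectable, with only 4 and 11 macrophage and 15 and 120 B cell barcodes.

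Other transcripts set these cells apart from the rest. Tnfrsf4, which encodes the costimulatory receptor OX40, was found in 85.7%, 74.0%, 54.5% and 71.0% of the Foxp3+ cells of the 4 libraries, but in 0.670%, 3.44%, 1.5% and 4.85% of the other Cd3e+ cells and in 4.58% of the macrophage barcodes. After thinning to 1500 UMIs the shares were 83.3%, 56.9%, 42.9% and 59.6% of Foxp3+ cells and 0.433%, 1.97%, 0.795% and 3.27% of the others. Beside Foxp3, 4 markers had been set for regulatory T cells, namely Ctla4, Tnfrsf4, Ikzf4 and Izumo1r. At least 2 of them were found in 162 of 263 Foxp3+ cells (61.6%) and in 365 of 21079 other cells (1.73%), and after thinning in 39.3% and 0.712%. By library the unthinned share was 71.4%, 65.4%, 22.7% and 64.5% of Foxp3+ cells, lowest in Csf3r-/- library 1, and 0.423%, 2.40%, 1.0% and 2.22% of the other cells. In Csf3r-/- library 1 most of the cells thus did not meet this mark, and over all libraries 51 cells held none of these markers. The markers were chosen with these data known, so they describe the cells and do not test the name.

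The number of markers moved with the Foxp3 count at the edge of the rule. Of the 178 cells with 1 Foxp3 UMI, 91 (51.1%) held at least 2 markers, and of the 85 cells with more Foxp3 UMIs, 71 (83.5%) did, and after thinning to 1500 UMIs the shares were 30.7% and 57.7%. In Csf3r-/- library 1 only 1 of 18 cells (5.56%) with 1 Foxp3 UMI held 2 markers, against 4 of 4 cells with more. In the 2 larger samples, Csf3r+/+ library 2 and Csf3r-/- library 2, the cells with 1 Foxp3 UMI reached 58.1% and 54.2%.

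**Figure D2:**
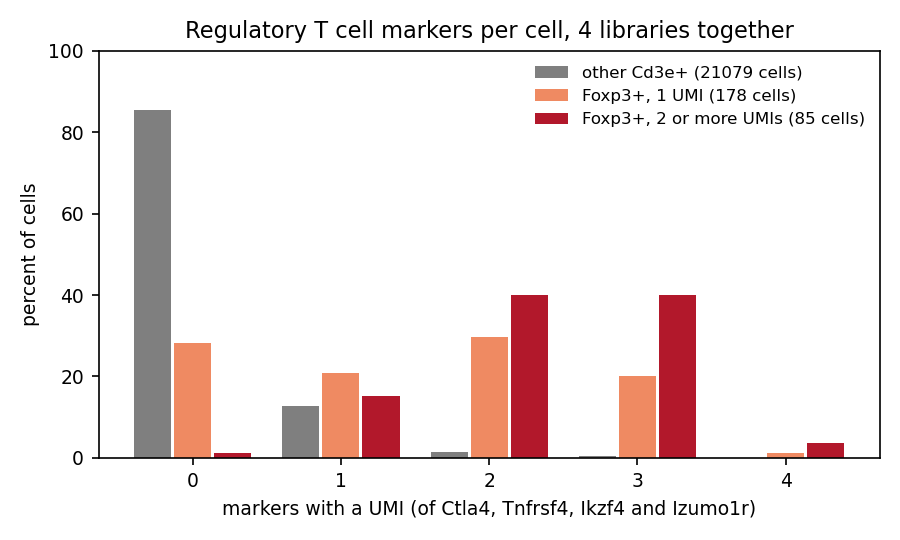
Number of 4 regulatory T cell markers (Ctla4, Tnfrsf4, Ikzf4, Izumo1r) with a UMI in a cell (horizontal axis) against the percent of cells (vertical axis), for other Cd3e+ cells and for Foxp3+ cells with 1 or with more Foxp3 UMIs, all libraries together. At least 2 markers were found in 1.73%, 51.1% and 83.5% of the cells of these classes.

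To ask which genes set these cells apart, UMIs were summed per library over the Foxp3+ cells and over the other Cd3e+ cells and the sums entered a quasi-likelihood test in edgeR, with the library as a block and Benjamini-Hochberg adjustment over all 9830 genes tested. Levels are in CPM of the sum, always in the order Csf3r+/+ libraries 1 and 2 and Csf3r-/- libraries 1 and 2. Of all genes tested, 321 (3.27%) had an adjusted p under 0.05, 165 (1.68%) higher and 156 (1.59%) lower in Foxp3+ cells. DESeq2 called 107 genes of which 80 were higher and 27 lower, 105 of them among the 321. Leaving out a library gave 419 calls without Csf3r+/+ library 1, 176 without Csf3r+/+ library 2, 210 without Csf3r-/- library 1 and 159 without Csf3r-/- library 2. The median log2 fold change of all genes tested was -0.11, and every fold below is to be read against it.

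Genes that mark regulatory T cells were higher together. Of 17 listed identity markers 15 were tested, 13 were higher, 0 were lower and 2 did not pass the test, with a median log2 fold change of 2.91 (background 1.68% of genes higher). In 12 of these 13 genes the sums of Foxp3+ cells were above those of other cells in every library and did not overlap with them. With other cells matched in UMIs 9 of 11 identity markers were higher, and without the library block 5 of 15, with medians of 2.26 and 2.84. Tigit and Gpr83, both surface receptors, had 2 and 3 UMIs in all Foxp3+ cells and fell under the filter on low counts. Of the listed genes, Ctla4, Tnfrsf4, Ikzf4 and Izumo1r had been named as markers of these cells from earlier results of the same data, so their calls are not independent evidence of what the cells are. The rest of the list was also chosen with earlier results of these data known. The count of 13 is therefore not independent evidence either.

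Tnfrsf4 led the list, and the other tumor necrosis factor receptors on it changed less. Tnfrsf4 reached 1474, 897, 893 and 1279.7 CPM in Foxp3+ cells and 6.34, 24.0, 10.2 and 47.1 CPM in the others. It was the most changed of the named genes, with a log2 fold change of 5.62 ± 0.22 (SE, edgeR adjusted p = 1.27e-140), and the lowest Foxp3+ sum was far above the highest of the others. The gene lies on chromosome 4 (156013843 to 156016612, GRCm38, plus strand), next to Tnfrsf18 (156026164 to 156028895), which encodes GITR, another costimulatory receptor of the family. Tnfrsf18 reached 1308, 1085, 870.5 and 958 CPM in Foxp3+ cells and 282, 447, 135 and 175 CPM in the others (log2 fold change 1.86 ± 0.20). Tnfrsf9, which encodes the activation-induced receptor CD137, had 666, 455, 317 and 639.9 CPM against 98.9, 87.6, 20.4 and 78.2 CPM (2.67 ± 0.20). All 3 receptors were thus higher in each library, but Tnfrsf18 was also well detected in the other UTCαβ.

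Ctla4, the inhibitory receptor that competes with CD28 for its ligands, had 285, 319.6, 384 and 451 CPM in Foxp3+ cells and 8.99, 23.1, 27.4 and 99.9 CPM in the others (log2 fold change 3.15 ± 0.20, edgeR adjusted p = 4.31e-51). The gene lies on chromosome 1 (60887000 to 60915832). Its level in the other cells was highest in Csf3r-/- library 2, still below every Foxp3+ sum. Il2ra, the α chain that gives the interleukin-2 receptor its high affinity, had 166, 128, 226 and 204 CPM against 38.5, 29.0, 68.6 and 88.9 CPM (1.51 ± 0.21). Izumo1r, a folate receptor family protein on the surface of regulatory T cells, had 143, 236, 102 and 225 CPM against 26.6, 28.6, 18.3 and 16.9 CPM (2.91 ± 0.22).

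Of the Ikaros family factors, the identity markers Ikzf4 and Ikzf2 were both higher but differed in level. Ikzf3, another member, was lower (log2 fold change -0.87 ± 0.22), and Ikzf1 did not pass the test (-0.30 ± 0.23). Ikzf4 (Eos), a partner of Foxp3 in gene repression, had 23.8, 35.3, 11.3 and 33.0 CPM in Foxp3+ cells and 0.818 to 2.41 CPM in the others (log2 fold change 3.73 ± 0.46). These levels rest on few molecules, since the Foxp3+ cells of Csf3r+/+ library 1 and Csf3r-/- library 1 held 1 Ikzf4 UMI each. Ikzf2 (Helios), found in many thymus-derived regulatory T cells, had 999, 1016, 938 and 976 CPM against 313, 618, 279 and 305 CPM (1.16 ± 0.20). It was thus abundant in the other UTCαβ too.

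The other identity markers were surface and secreted proteins. Klrg1, a lectin-like inhibitory receptor, had 309, 167, 192 and 159 CPM in Foxp3+ cells against 10.7, 3.45, 4.19 and 8.23 CPM (log2 fold change 4.78 ± 0.26, edgeR adjusted p = 1.75e-70). Penk, the precursor of enkephalin peptides, had 166, 165, 11.3 and 132 CPM against 0.307 to 9.48 CPM (4.24 ± 0.31), and was low in Csf3r-/- library 1, where it was 1 UMI. Cd81, a tetraspanin, had 285, 279, 147 and 147 CPM against 7.97, 14.4, 6.68 and 19.9 CPM (3.74 ± 0.23). Lrrc32, the anchor of latent transforming growth factor β, had 11.3 to 23.8 CPM against 0.102 to 1.42 CPM (3.91 ± 0.59), from 16 UMIs in all Foxp3+ cells. Itgae, the αE integrin chain, passed the test (1.34 ± 0.25) although it had no UMI in the Foxp3+ cells of Csf3r+/+ library 1 and was below the other cells in Csf3r-/- library 1. Capg and Nrp1 did not pass it, with 0.24 ± 0.20 and 0.59 ± 0.24.

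Of 10 listed genes of tissue regulatory T cells and alarmin responses 8 were tested, and 4 were higher, Il1r2, Ccr4, Glrx and Gpr55 (median log2 fold change 1.24). Without Csf3r+/+ library 2, 2 of 7 were higher. Il1r2, the decoy receptor for interleukin-1, had 21 and 18 UMIs (39.0 and 54.1 CPM) in the Foxp3+ cells of Csf3r+/+ library 2 and Csf3r-/- library 2 and 0 in the 2 small samples, with 4.39 and 3.46 CPM in the other cells of the same 2 larger libraries. Glrx, a glutaredoxin, had 428, 401, 520.0 and 571 CPM against 117, 50.3, 157 and 137 CPM (log2 fold change 1.99 ± 0.19). Gpr55, a lipid receptor, had 23.8 to 67.8 CPM against 3.76 to 10.2 CPM (2.58 ± 0.35). Few molecules underlie its levels in Csf3r+/+ library 1 and Csf3r-/- library 1, where the Foxp3+ sums held 42059 and 88456 UMIs.

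**Figure D3:**
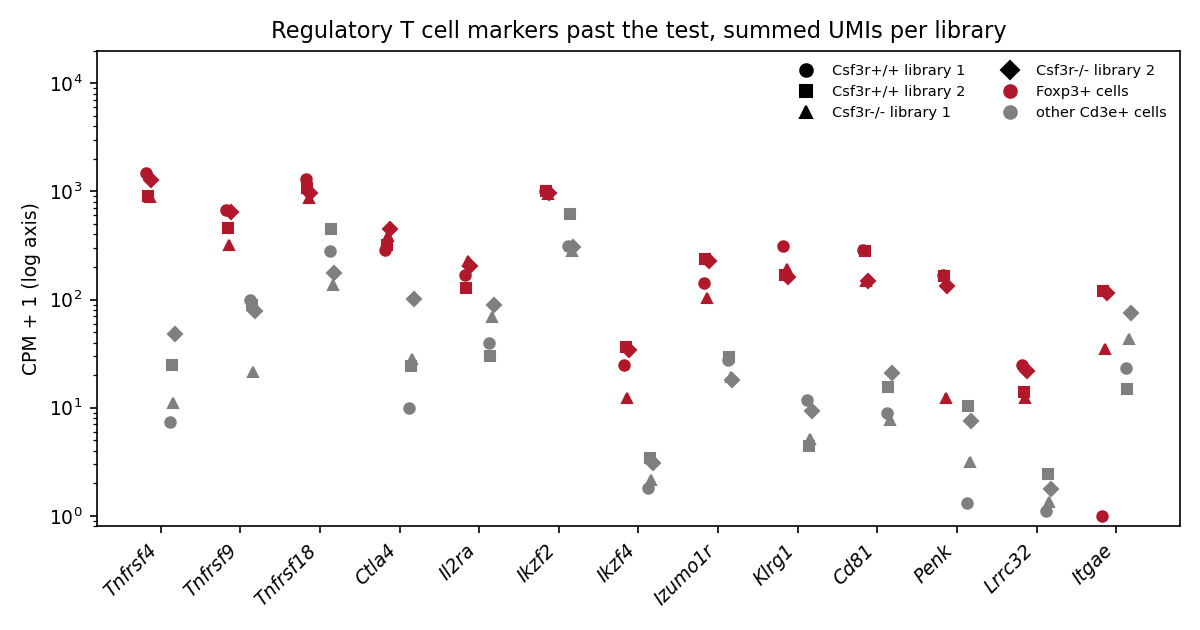
Levels of the 13 identity markers that passed the test (horizontal axis) in CPM + 1 on a log axis, in the summed Foxp3+ cells and other Cd3e+ cells of each of the 4 libraries. The Foxp3+ sums lie above all sums of other cells for every gene but Itgae.

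Among suppressive mediators 5 of 11 tested genes were higher and 0 lower (median log2 fold change 1.09). Without Csf3r-/- library 2 this fell to 2 of 11 with a median of 0.54, and other settings gave 2 of 11 with DESeq2, 1 of 10 with at least 2 Foxp3 UMIs and 0 of 6 with cells matched in UMIs. Ebi3, a subunit of interleukin-27 and interleukin-35, had 71.3, 14.9, 11.3 and 30.0 CPM in Foxp3+ cells and 0.511 to 1.76 CPM in the others (log2 fold change 3.95 ± 0.52). Its levels in Csf3r+/+ library 1 and Csf3r-/- library 1 rest on few molecules, since those Foxp3+ sums held 42059 and 88456 UMIs in all. Il10, an anti-inflammatory cytokine, rose by 3.41 ± 0.60, from 15 UMIs in 11 cells. Areg, which encodes amphiregulin, had 47.6, 108, 11.3 and 213 CPM against 0.511, 22.8, 10.9 and 64.5 CPM (1.80 ± 0.25), with both classes about level in Csf3r-/- library 1. Pglyrp1 (1.09 ± 0.20) and Lag3 (1.29 ± 0.37) were higher as well. Tgfb1, Entpd1, Nt5e, Fgl2, Gzmb and Lgals1 did not pass the test. For Gzmb, a granule protease of cytotoxic and some regulatory T cells, the levels overlapped, with 618, 1368, 678 and 1072 CPM against 1034, 892, 282 and 342 CPM.

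Of 14 costimulatory and inhibitory receptors 6 were higher and 1 lower. Cd5, which dampens T cell receptor signals, had 452, 227, 215 and 261 CPM against 52.8, 54.6, 39.3 and 50.1 CPM (log2 fold change 2.16 ± 0.20). Havcr2, which encodes the checkpoint receptor TIM-3, had 22.6 to 45.1 CPM against 0.948 to 9.62 CPM (3.02 ± 0.41). Few molecules underlie its levels in Csf3r+/+ library 1 and Csf3r-/- library 1, where the Foxp3+ sums held 42059 and 88456 UMIs. Cd6, Slamf1, Cd2 and Cd27 were higher by 0.80 to 1.67, and Cd160, a receptor of innate-like and cytotoxic lymphocytes, was lower by -1.31 ± 0.24. Pdcd1, which encodes PD-1, and Icos did not pass the test, with 0.59 ± 0.21 and 0.02 ± 0.20.

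Cd4 transcripts were found in the Foxp3+ cells in spite of the sort. A Cd4 UMI was found in 14.3%, 15.7%, 13.6% and 18.7% of Foxp3+ cells and in 0.176%, 0.916%, 0.347% and 0.670% of the others, and the summed level was 23.8, 39.0, 33.9 and 69.1 CPM against 0.511 to 3.27 CPM (log2 fold change 4.04 ± 0.41, edgeR adjusted p = 1.01e-19). The level of surface CD4 was not measured in these data. Of the macrophage barcodes 5.34% held a Cd4 UMI. Cd8a was found in 2 Foxp3+ cells. Cd8b1, the β chain of CD8, was found in 14.3%, 9.45%, 13.6% and 9.35% of Foxp3+ cells and did not pass the test (1.03 ± 0.36).

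Transcripts of innate-like T cells and of natural killer cells were lower. Of 15 receptors and adaptors of natural killer cells 12 were lower and 0 higher (median log2 fold change -1.37, background 1.59% of genes lower), while DESeq2 called 2 of the 15. With other cells matched in UMIs 3 of 7 were lower, and without the library block 0 of 15, with medians of -1.18 and -1.27. Klrd1, which encodes CD94, had 0, 369.8, 56.5 and 87.1 CPM in Foxp3+ cells against 534, 696, 202 and 197 CPM (-1.62 ± 0.23). Klra1 and Klra9, Ly49 receptors for MHC class I, fell by 1.67 and 1.71 on the log2 scale. Ly49 genes are near-identical, and UMIs may be split between them. The Foxp3+ sum was below the other cells of the same library in all 4 libraries for each of these 3 genes, but Csf3r+/+ library 2 kept appreciable levels.

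Of 12 genes of type 3 innate-like T cells, those that make interleukin-17, 5 were lower and 0 higher (median -1.24). With other cells matched in UMIs 1 of 7 was lower, and without the library block 0 of 12, with medians of -0.81 and -1.12. Zbtb16, which encodes PLZF, the factor of innate-like T cells, had 0, 0, 22.6 and 51.1 CPM in Foxp3+ cells and 44.7, 11.8, 118 and 122 CPM in the others (log2 fold change -1.89 ± 0.35). Il17re, a receptor subunit for interleukin-17 family cytokines, was lower by -1.67 ± 0.36, and Tmem176b, an ion channel-like protein, by -1.37 ± 0.21. Il17a itself did not pass the test (-0.58 ± 0.27). Il17a was found in 36 of 107 Foxp3+ cells (33.6%) of Csf3r-/- library 2, where it was found in 44.7% of other Cd3e+ cells and in 28.2% of macrophage barcodes. The macrophage barcodes were deeper, with a median of 5909 UMIs against 2603 in these Foxp3+ cells, so the share in Foxp3+ cells cannot be placed against the background of that library.

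Of 16 tested effector cytokines and cytotoxic proteins 3 were lower and 0 higher, with 1 lower by DESeq2 and 5 of 18 without Csf3r+/+ library 1. These were Gzmc, a granzyme (-2.27 ± 0.39), the chemokine Ccl5 (-1.60 ± 0.24) and the chemokine Xcl1 (-1.55 ± 0.22). Xcl1 had 0, 749, 79.1 and 219 CPM in Foxp3+ cells against 1063, 1487, 269 and 304 CPM. Ifng, the type 1 effector cytokine that the study followed in UTCαβ, did not pass the test (-0.43 ± 0.23).

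Among transcription factors of T cell programs, 5 of 25 tested genes were lower and 1 higher. DESeq2 called 1 lower, and 3, 2 and 3 were lower without Csf3r+/+ library 2, Csf3r-/- library 1 or Csf3r-/- library 2. Beside Zbtb16, these were Tcf7, Id2, Id3 and Ikzf3, with log2 fold changes of -0.68 to -1.42. Hif1a, the hypoxia-inducible factor, was higher, with 190.2, 191, 294 and 255 CPM against 36.1, 67.9, 79.1 and 118 CPM (1.33 ± 0.20). Among interleukin-2 receptor chains and STAT5 targets 1 of 11 was higher, Il2ra, and 3 were lower, Socs3, Il7r and the survival gene Bcl2 (-1.33 ± 0.23). DESeq2 called 0 of the 11 lower, and with matched cells 0 of 7 were lower. Low Il7r, the interleukin-7 receptor chain, beside high Il2ra is a known trait of regulatory T cells, and here Il7r had 95.1, 386, 226 and 351 CPM against 278, 342, 479.7 and 575 CPM. It was thus not below the other cells in Csf3r+/+ library 2.

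Homing receptors were divided, with 2 of 16 tested genes higher and 2 lower. DESeq2 called 1 in each direction, and without Csf3r-/- library 2 edgeR called 0 higher and 1 lower. Cxcr3, a receptor for interferon-induced chemokines, had 428, 268, 350.5 and 273 CPM against 186, 167, 97.7 and 56.6 CPM (log2 fold change 1.23 ± 0.19). Cxcr6 (-1.18 ± 0.21) and Itgb1 (-0.78 ± 0.22) were lower. Of 13 interferon response genes 3 were higher, Ifi27l2a, Iigp1 and Tap1, and 1 was lower, Ly6c2. Ifi27l2a had 5611, 1321, 5675 and 3262 CPM against 1479.6, 530.1, 2025 and 512 CPM (1.56 ± 0.21), whereas Isg15, Irf7 and 7 more genes of that list did not pass the test.

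Of 12 immediate genes of T cell receptor signalling 0 passed edgeR's test in either direction, 0 passed DESeq2's, and 2 had an unadjusted edgeR p under 0.05. Of 10 tested genes of the T cell receptor complex and coreceptors 2 were higher, Cd4 and Cd5. Cd3d, Cd3g and Cd247, chains of the complex, did not pass the test.

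Cell cycle genes were higher in 6 of 11 cases (median log2 fold change 0.69). Fewer were called without Csf3r+/+ library 1, after thinning and with other cells matched in UMIs. Birc5, an inhibitor of apoptosis of dividing cells, had 951, 31.6, 102 and 33.0 CPM in Foxp3+ cells against 94.3, 20.6, 28.0 and 21.4 CPM. Mki67, which encodes Ki-67, had 404, 33.4, 67.8 and 24.0 CPM against 32.4, 11.9, 23.1 and 14.0 CPM. Without Csf3r+/+ library 1, Mki67 and Ccnb2 were the only 2 of 11 still called higher and the median was 0.05. With the upper limits on genes per cell that the study used, which leave out the cell of 17419 UMIs, 2 of 11 were higher. With all libraries kept, DESeq2 called 2 of 11 higher, thinning left 1 of 11 (median 0.16), and with other cells matched in UMIs 0 of 9 were higher, 1 was lower and the median was -0.20.

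**Figure D4:**
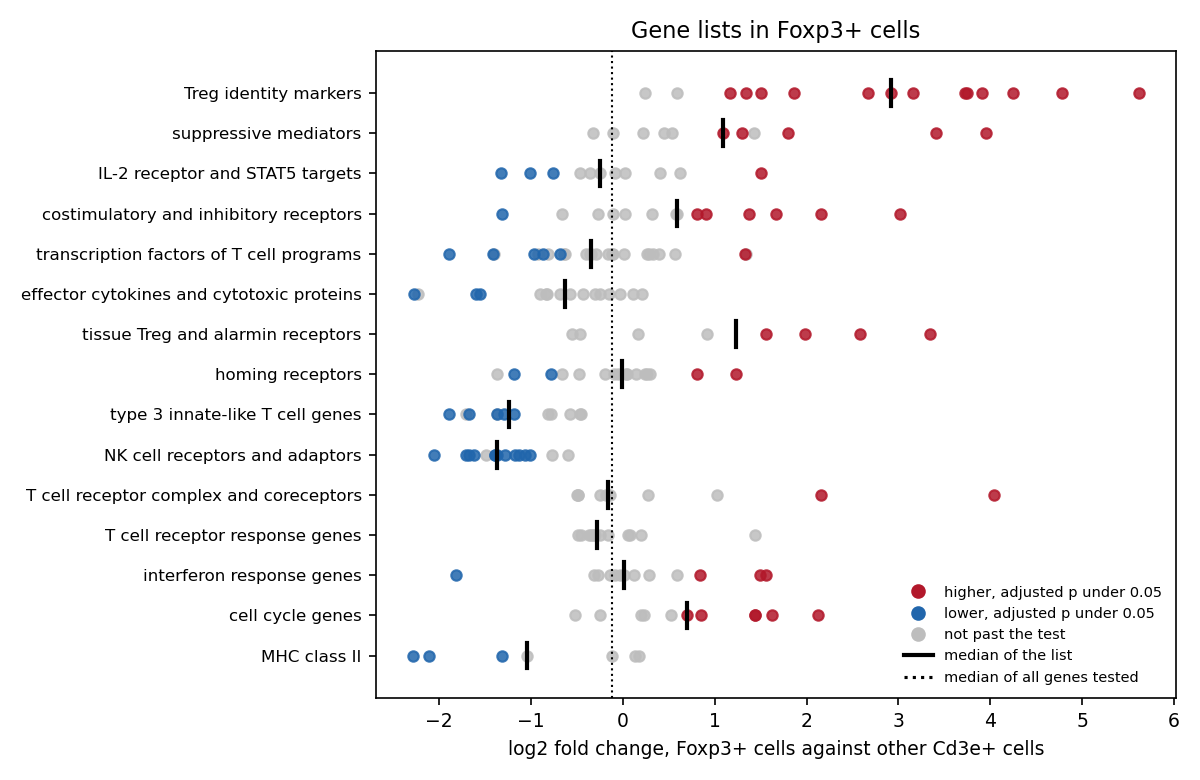
Log2 fold change between Foxp3+ cells and other Cd3e+ cells (horizontal axis) of the tested genes of 15 lists (vertical axis). Each point is a gene, coloured by the edgeR call, bars are list medians, and the dotted line is the median of all genes tested at -0.11. The identity markers lie to the right, with a median of 2.91, and natural killer cell receptors to the left, with a median of -1.37.

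Transcripts of other cell types moved with some of these values. The 9 macrophage genes summed to 0, 29, 2 and 850 UMIs in the Foxp3+ cells of the 4 libraries (0, 53.9, 22.6 and 2553 CPM), with Apoe the most abundant at 444 UMIs in Csf3r-/- library 2, where 0 of the 9 genes were at 0. In the other Cd3e+ cells they summed to 24.1, 321, 130 and 1514 CPM. Of 7 macrophage genes tested, Cd68 was higher and Apoe lower, with a median log2 fold change of 0.22. Apoe turned to 0.026 with thinning, 0.025 without Csf3r+/+ library 2 and 0.29 without the library block, not past the threshold. Without Csf3r-/- library 2, 0 of 6 macrophage genes were higher and 4 lower, with a median of -2.87. B cell, neutrophil, dendritic cell and fibroblast genes gave at most 17, 3, 6 and 1 UMIs in any library's Foxp3+ cells, and Cd79b, the most abundant of the B cell genes, gave 15 of the 17. At least 2 UMIs of such genes were found in 0, 11, 3 and 17 Foxp3+ cells, or 8.66%, 13.6% and 15.9% of them in the last 3 libraries, against 2.19%, 4.86%, 3.79% and 11% of the other Cd3e+ cells. The share was thus higher in Foxp3+ cells in 3 of 4 libraries, in data without a doublet caller. In those 3 libraries the Foxp3+ cells were also deeper, with medians of 3943, 3138 and 2603 UMIs against 3021, 2237 and 1978. This share was not evened out for depth, so it cannot show whether Foxp3+ cells held more such transcripts than others of like depth.

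MHC class II genes, which macrophages and B cells express, moved with the cells that held such transcripts. Of 7 tested, H2-Aa, H2-Ab1 and H2-Eb1 were lower in Foxp3+ cells (-2.11 ± 0.28, -2.29 ± 0.28 and -1.32 ± 0.27). Without the cells that held 2 or more transcripts of other cell types, none of these 3 passed the test, with log2 fold changes of -0.50 for H2-Aa, -0.68 for H2-Ab1 and 1.08 for H2-Eb1. Cd74, the invariant chain of MHC class II, was then higher by 2.18 ± 0.22 (edgeR adjusted p = 5.48e-21), against -0.12 ± 0.21 with all cells, and the median of the list turned from -1.04 to 0.37. Of the identity markers 12 of 14 tested were higher without those cells, with a median of 2.74. Of the 321 genes called, 243 were also among the 274 called without those cells, where 13 of 15 natural killer cell genes were lower, 3 of 10 suppressive mediators higher and 5 of 11 cell cycle genes higher.

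Barcodes with a Foxp3 UMI but without a Cd3e UMI also differed from the rest in identity markers. They numbered 4 of 741, 82 of 5047, 6 of 1953 and 42 of 3309 barcodes in Csf3r+/+ libraries 1 and 2 and Csf3r-/- libraries 1 and 2. This comparison was added after seeing the data. Compared with the other barcodes without Cd3e, 10 of 13 tested identity markers of regulatory T cells were higher and 0 lower (background 0.85% of 7415 genes higher and 0.432% lower), with a median log2 fold change of 2.66 beside -0.18 for all genes tested. Of 15 receptors and adaptors of natural killer cells 6 were lower. Of 8 suppressive mediators 1 was higher, and of 11 effector genes 6 were lower. Of 11 cell cycle genes 0 were called by edgeR. Of the 95 genes called there, 64 were also among the 321 called in Cd3e+ cells, 67.4% of the former and 19.9% of the latter.

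The largest changes among all genes, by the rule for naming them, included some outside these lists. Arl5a, a small GTPase of the ARF-like family, had 47.6, 70.6, 56.5 and 81.1 CPM in Foxp3+ cells against 10.1, 10.5, 12.9 and 13.8 CPM (log2 fold change 2.35 ± 0.31), and its classes did not overlap. Fam169b was higher by 2.39 ± 0.33. Ccnb1, a cyclin of mitosis, had 428, 3.72, 67.8 and 9.01 CPM against 18.9, 3.02, 4.40 and 3.65 CPM (2.65 ± 0.41), and was thus high mainly in Csf3r+/+ library 1. Ly6c2, Sdc1 (syndecan-1) and Pxdc1 were among the largest of the lower genes, with -1.82, -1.77 and -1.66. Ly6c2 had 0, 1259.8, 429.6 and 309 CPM against 1777, 2207, 1348 and 695 CPM, below the other cells in each library.

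The next comparison asked what remained when the other cells also carried Cd4 transcripts. The Cd3e+ cells with a Cd4 UMI and no Foxp3 UMI numbered 5, 58, 18 and 45. Between Foxp3+ cells and these, 0 of 1626 genes tested (0%) passed edgeR's test, 152 had an unadjusted p under 0.05, and DESeq2 called 3, Tnfrsf18, Ctla4 and Klra9, named here after their values were seen. Of 11 identity markers tested, 10 had a positive log2 fold change and the median was 1.0, beside 0.01 for all genes. Ctla4 had 285, 319.6, 384 and 451 CPM in Foxp3+ cells and 0, 69.9, 136 and 204 CPM in Cd4+ Foxp3- cells (log2 fold change 1.60 ± 0.26, edgeR adjusted p = 0.0531). Tnfrsf18 had 558, 474, 388 and 563 CPM in the latter (1.0 ± 0.18, edgeR adjusted p = 0.0582). For both genes every Foxp3+ sum was above every Cd4+ Foxp3- sum. The Cd4+ Foxp3- cells held more macrophage and MHC class II transcripts in 3 of the 4 libraries. Apoe had 0, 4423, 116.5 and 3635 CPM in them and 0, 29.7, 0 and 1334 CPM in Foxp3+ cells (-3.95 ± 1.03, edgeR adjusted p = 0.248). H2-Eb1 had 0, 805, 97.1 and 288 CPM against 23.8, 29.7, 0 and 96.1 CPM (-3.32 ± 0.54, edgeR adjusted p = 0.0531). Without the cells that held 2 or more transcripts of other cell types, 0 of 1321 genes were called by edgeR and 101 had an unadjusted p under 0.05. Tnfrsf4 had 0, 221, 466 and 752 CPM in Cd4+ Foxp3- cells, a level between the Foxp3+ cells and the other Cd3e+ cells in the larger libraries. With 14326 UMIs in the smallest of these sums, a missing call does not show that the classes are alike. Without Csf3r+/+ library 1, the smallest, 8 of 2797 genes were called.

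Between genotypes, Foxp3+ cells differed in 3 of 3109 genes tested (0.0965%). All 3, namely Blk, Tmem176a and Cxcr6, were higher in Csf3r-/- sarcomas. Some other settings also called lower genes. Thinning gave 6 higher and 12 lower, no low-count filter 32 and 35, and the study's upper gene limits 6 and 3. A block on the replicate number gave 15 and 17, while DESeq2 gave 2 and 0. Blk, a Src family kinase of B cells and interleukin-17-producing T cells, had 0 and 2 UMIs (0 and 3.72 CPM) in the Csf3r+/+ libraries and 14 and 52 UMIs (158 and 156 CPM) in the Csf3r-/- libraries (log2 fold change 5.21 ± 0.65, edgeR adjusted p = 0.0475). Tmem176a had 71.3 and 61.3 CPM against 769 and 669.9 CPM (3.39 ± 0.40). Cxcr6, a chemokine receptor of tissue-resident and innate-like T cells, had 166 and 180.2 CPM against 1436 and 1469 CPM (2.97 ± 0.37). The genotypes did not overlap for any of these genes, and the adjusted p was 0.0475 for each of the 3 genes. All 3 are on the list of type 3 innate-like T cell genes, of which 6 were tested and had a median log2 fold change of 3.18, beside -0.03 for all genes. Tmem176a lies on chromosome 6 (48840919 to 48847071, plus strand) and overlaps Tmem176b (48833818 to 48841496, minus strand), and Tmem176b had 238 and 102 CPM against 554 and 571 CPM without passing the test (1.91 ± 0.44, edgeR adjusted p = 0.23).

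The other Cd3e+ cells moved in the same direction. In them Blk had 88.5 and 6.81 CPM in the Csf3r+/+ libraries and 199 and 227 CPM in the Csf3r-/- libraries. Tmem176a had 845 and 129 against 1126 and 1153 CPM, and Cxcr6 had 1089.6 and 319 against 2189 and 2307 CPM. The difference between genotypes was not shown to be particular to Foxp3+ cells, since the interaction of genotype and class was not past the threshold for any of the 3 genes (edgeR adjusted p = 1). Among the cells with 2 or more Foxp3 UMIs no gene passed the test, although the folds of Tmem176a and Cxcr6 stayed within 3.23 to 3.52 and 2.74 to 3.33 over every setting tried, this one included. Blk fell under the filter there. Of these cells Csf3r+/+ library 1 held 5 and Csf3r-/- library 1 held 4, while 46 genes there had an unadjusted edgeR p under 0.05. The number of genes called also moved with the libraries, to 256, 238, 13 and 4 when Csf3r+/+ library 1 or 2 or Csf3r-/- library 1 or 2 was left out. Without either Csf3r+/+ library all 3 genes passed, but that arm then held a single library, assumed to vary like the other genotype, so this says little about stability. The same limit holds for the Csf3r-/- arm, where Cxcr6 missed the threshold without Csf3r-/- library 1 (edgeR adjusted p = 0.0871) and Blk without Csf3r-/- library 2 (edgeR adjusted p = 1.0). DESeq2 called Tmem176a and Cxcr6 and not Blk.

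**Figure D5:**
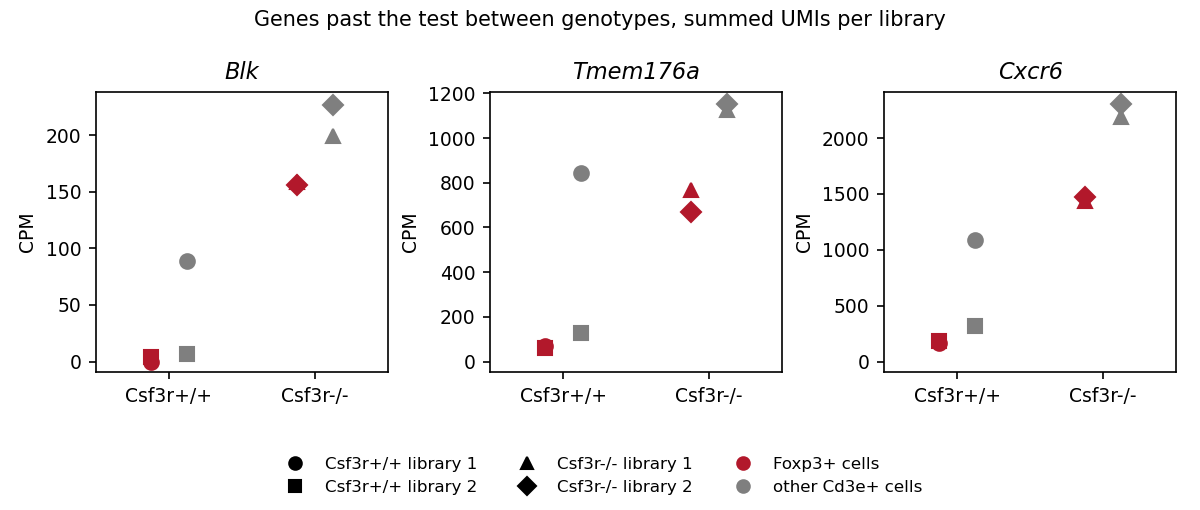
Levels of Blk, Tmem176a and Cxcr6 in CPM (vertical axes, linear) in the summed Foxp3+ cells and other Cd3e+ cells of each library, by genotype (horizontal axis). In Foxp3+ cells both Csf3r-/- libraries lie above both Csf3r+/+ libraries, and in the other cells the same order holds.

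Regulatory T cell markers did not differ detectably between genotypes. Of 13 identity markers tested 0 passed edgeR's test, 3 had an unadjusted p under 0.05, and their median log2 fold change was -0.18. The 3 were Capg (1.02 ± 0.34), Nrp1 (1.58 ± 0.60) and Cd81 (-0.99 ± 0.37). Tnfrsf4 differed by -0.10 ± 0.37, Ctla4 by 0.39 ± 0.37, Klrg1 by -0.37 ± 0.41 and Il2ra by 0.54 ± 0.38. Among 13 interferon response genes 12 had a positive fold change and 0 passed the test, with a median of 0.72, beside -0.03 for all genes.

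The interaction of genotype and class, which asks whether Foxp3+ cells differ from other cells more in one genotype than in the other, was past the threshold for 8 of 10562 genes (0.0757%), and for 0 of 16 identity markers. Of these 16, 7 had an unadjusted edgeR p under 0.05, beside 263 of all 10562 genes, and their median was -0.52, beside 0.03 for all genes, with 6 of 16 positive. For 5 of the 8, namely Ccl1, Il1b, Ifitm1, C1qb and Apoe, a single cell gave over 50% of the gene's UMIs in Foxp3+ cells. Ifitm1 had 52 UMIs in 1 Foxp3+ cell of Csf3r-/- library 1 and 0 in all the rest. Ccl1, a chemokine ligand of CCR8, had 116 UMIs in 4 Foxp3+ cells of Csf3r-/- library 2, 82.8% of them in a single cell, and 0 in the Foxp3+ cells of the other libraries. Apoe and C1qb, both macrophage genes, had 444 and 90 UMIs in the Foxp3+ cells of Csf3r-/- library 2, with 51.1% and 75.8% of all their UMIs in a single cell. Without Csf3r+/+ library 1 or 2 the interaction gave 40 and 104 calls, and without Csf3r-/- library 1 or 2 it gave 2 and 1.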

How the data were processed

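Single-cell RNA libraries were made with droplet barcoding and 3′ counting. Per the labels and the study's methods, reads were demultiplexed with bcl2fastq and aligned to mm10 with Cell Ranger, and the authors deposited 1 table of raw UMI counts per genotype that joins both libraries. Whether depth was evened out on joining is not stated in the sources used here. The number after a barcode separates the libraries but is not tied to an animal, so libraries are numbered here by that suffix only. The submitters' processing notes also name R 3.4.4 and Seurat 2.3.4.

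Barcodes with at least 200 genes, no more than 20000 UMIs and no more than 10% of UMIs from mitochondrial genes were kept, without a doublet caller. UMI counts were summed per library and class and tested with edgeR 4.0.16 in R 4.3.3 (TMM, filterByExpr, quasi-likelihood F test, Benjamini-Hochberg adjustment, threshold 0.05), with the library as a block where both classes were compared. Foxp3 and Cd3e were not tested, nor was Cd4 where it chose cells. SE is the log2 fold change divided by the square root of F. The test shares its estimate of spread between genes, so SE and p do not measure the spread of a single gene between libraries. Named genes were, per direction, the 10 called genes of largest fold change, moving the same way in all 4 libraries and reaching a mean of 50 CPM in the higher class, the 5 of largest change per direction for genotype and interaction, and genes of role lists. Of 245 listed genes 238 were in the tables. Some listed genes enter the counts but are not reported here by name. The cells, the markers and the lists were chosen with earlier results of these data known. Gene positions are from GENCODE vM21 on GRCm38, where 98.7% of gene IDs were found. The settings varied were the tool (DESeq2 1.42.0), the low-count filter, at least 2 Foxp3 UMIs, the upper gene limits of the study (3500 genes in Csf3r+/+ and 4000 in Csf3r-/- cells), thinning to 1500 UMIs, cells without transcripts of other cell types, other cells matched in UMIs, no block, and each library left out. The tests were tested on simulated data.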

Additional observations from a re-analysis of the deposited data

Results flagged for a closer look

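The difference between Foxp3+ and other Cd3e+ cells itself differed between genotypes, by edgeR's test of the interaction, for 8 genes. The values that follow are log2 fold changes in Csf3r-/- minus those in Csf3r+/+ sarcomas. Ccl1 gave 14.53, from 0, 0, 0 and 116 UMIs in the Foxp3+ cells of Csf3r+/+ libraries 1 and 2 and Csf3r-/- libraries 1 and 2. Il1b gave 12.74, from 0, 0, 1 and 51 UMIs. Ifitm1 gave 12.74, from 52 UMIs in 1 cell of Csf3r-/- library 1. Folds of these 3 genes depend on the prior count, since they were at 0 in the Foxp3+ cells of both Csf3r+/+ libraries. The macrophage genes C1qb and Apoe gave 4.82 and 3.05, with the macrophage list at 850 UMIs in the Foxp3+ cells of Csf3r-/- library 2. Slc15a3, a peptide transporter, gave -3.11, from 166, 27.9, 45.2 and 81.1 CPM in Foxp3+ cells and 5.72, 2.84, 33.3 and 56.1 CPM in the others.

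Ms4a4b lies outside the rule for naming genes and was chosen after its values were seen. Ccl4, a chemokine on the list of effector genes, gave 2.00, from 23.8, 152, 11.3 and 442 CPM in Foxp3+ cells and 211, 187, 60.7 and 122 CPM in the others. Ms4a4b gave 1.69, from 523, 1464, 1786 and 988 CPM against 1411, 1709, 1103 and 539 CPM. In Foxp3+ cells a single cell gave 22.9% of the UMIs of Ccl4, 2.39% of those of Ms4a4b, 11.3% of those of Slc15a3 and 55.8% of those of Il1b.

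Barcodes without a Cd3e UMI also held Foxp3 transcripts, in 134 of 11050 (1.21%). The share lay between the 1.53% of macrophage barcodes, which were deeper, and the 0.505% of B cell barcodes with a Foxp3 UMI.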

How the results depend on the processing

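Against other Cd3e+ cells, 321 genes were called. DESeq2 called 107, thinning to 1500 UMIs left 116, matching in UMIs 41 of 2837 tested, no library block 12 and barcodes without a Cd3e UMI, an alternative chosen after seeing the data, 95. Leaving out a library gave 159 to 419. Against Cd4+ Foxp3- cells, where 0 genes were called, DESeq2 called 3, no filter 63, the upper gene limits 3 and thinning 14, with 0 to 8 when a library was left out. Between genotypes, 3 genes became 2 with DESeq2, 67 without a filter, 0 with at least 2 Foxp3 UMIs, 9 with the upper gene limits and 18 with thinning, with 4 to 256 when a library was left out. The libraries share only a number across genotypes (r = 0.216 between the deviations of number 1 over 3109 genes), and a replicate block gave 32 calls. The median of all genes moved from -0.03 to 0.09 with DESeq2 in this comparison. The 8 interaction calls became 2 with DESeq2, 1 with at least 2 Foxp3 UMIs, 2 with thinning and 3 without cells holding other cell types' transcripts, with 1 to 104 when a library was left out. The cause of these changes was not tested.

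The difference in the share of Foxp3+ cells was -0.972 to 0.748 points when a library was left out, reversing to 0.748 without Csf3r+/+ library 2 and 0.461 without Csf3r-/- library 1. Reversed log2 fold changes, none past the threshold, were Top2a -0.18, Birc5 -8.56, Ccnb2 -0.56, Cdk1 -0.10 and Hmgb2 -0.69 in barcodes without Cd3e, Top2a -0.16 with matched cells, Apoe 0.026 with thinning, 0.025 without Csf3r+/+ library 2 and 0.29 without the block, and H2-Eb1 1.08 without cells holding other cell types' transcripts. In the interaction, C1qb reversed to -0.13 without those cells, C1qb, Apoe and Ccl4 to -6.55, -8.42 and -1.62 without Csf3r-/- library 2, and Ifitm1 to -1.79 with at least 2 Foxp3 UMIs and -1.91 without Csf3r-/- library 1. When a library was left out, Apoe ranged from -3.00 to 0.025 between classes, and in the interaction C1qb from -6.55 to 7.96, Apoe from -8.42 to 9.53, Ifitm1 from -1.91 to 18.51 and Ccl4 from -1.62 to 4.98.

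Depth limited the comparison most in Csf3r+/+ library 1, with 7 Foxp3+ cells and 42059 UMIs.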
